A study of Mus musculus with 6 samples.

Results

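Ptgs1, Lyz1, Lyz2, Il1r2, Mmp13 and Pgf are 6 genes better known from myeloid cells and inflamed tissue than from B cell precursors, and all 6 had higher transcript levels in pro-B cells after tamoxifen switched on a Gfi1b fusion protein. The members were taken by gene name from the authors' deposited table of changed genes, where each had 1 probe set, so that they are 6 of the 251 probe sets of that table and of 35557 measured in all. They were picked because they were higher with tamoxifen on these same arrays. Their differences between the groups are therefore given as a description, and where it is said that a member passed a threshold, nothing is supported with it. The cells were a mouse Abelson B cell line, at the pro-B stage and transformed by Abelson murine leukaemia virus, that carried from a retrovirus Gfi1b fused to the estrogen receptor domain. The fusion was present in both groups, which were the MINUS OHT arrays (3 untreated cultures) and the PLUS OHT arrays (3 cultures given tamoxifen for 12 h). All cultures came from this virally transformed line in medium with serum, and no tamoxifen-treated culture without the fusion was analysed here. Effects of the drug itself and of the fusion cannot be told apart. Total RNA was read on 1-colour arrays, and the deposited values are log2 expression per probe set with array medians between 7.52 and 7.61.

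Gfi1b is a zinc finger protein that represses transcription in blood cell precursors, chiefly through the histone demethylase LSD1 and its partners, and it is best known from red cells and platelets. The 6 genes code for enzymes, a receptor and a growth factor. Lysozymes cut the wall of bacteria, and Lyz2 is a standard marker of mouse macrophages and granulocytes, while Lyz1 is best known from Paneth cells of the gut. Ptgs1, also called COX-1, makes the precursor of prostaglandins and thromboxane and is abundant in platelets. Il1r2 is a decoy receptor that binds interleukin 1 without passing on a signal. Mmp13 is a collagenase of cartilage and bone, and Pgf is a growth factor of the VEGF family that binds the receptor Flt1.

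The stretches just before the transcription start are shown for 5 of the genes because they share a short sequence. The windows come from RefSeq on GRCm38.p6, which held the promoters of all 6 genes, and each is the 250 bases before the start, read 5′ to 3′ on the gene's strand. Capitals mark GGAAGT, the core read by ETS family factors, or its reverse complement. The windows are chr10:117282273-117282522 on the minus strand for Lyz2, chr10:117292869-117293118 on the minus strand for Lyz1, chr2:36230176-36230425 on the plus strand for Ptgs1, chr1:40085843-40086092 on the plus strand for Il1r2 and chr9:7272264-7272513 on the plus strand for Mmp13.
Lyz2: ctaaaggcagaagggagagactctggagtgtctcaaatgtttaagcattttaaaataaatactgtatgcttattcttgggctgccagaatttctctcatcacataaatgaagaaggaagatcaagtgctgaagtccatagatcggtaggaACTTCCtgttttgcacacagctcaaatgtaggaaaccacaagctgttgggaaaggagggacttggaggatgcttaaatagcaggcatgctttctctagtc
Lyz1: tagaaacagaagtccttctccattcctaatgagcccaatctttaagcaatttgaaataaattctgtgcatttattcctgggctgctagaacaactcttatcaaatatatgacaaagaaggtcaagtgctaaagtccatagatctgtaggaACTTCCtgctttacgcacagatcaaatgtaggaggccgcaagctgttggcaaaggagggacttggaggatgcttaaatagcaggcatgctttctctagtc
Ptgs1: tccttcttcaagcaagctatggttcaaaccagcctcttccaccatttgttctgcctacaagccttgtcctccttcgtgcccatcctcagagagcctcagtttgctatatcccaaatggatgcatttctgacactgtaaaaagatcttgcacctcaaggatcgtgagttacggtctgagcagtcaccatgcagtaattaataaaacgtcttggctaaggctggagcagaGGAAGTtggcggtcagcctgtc
Il1r2: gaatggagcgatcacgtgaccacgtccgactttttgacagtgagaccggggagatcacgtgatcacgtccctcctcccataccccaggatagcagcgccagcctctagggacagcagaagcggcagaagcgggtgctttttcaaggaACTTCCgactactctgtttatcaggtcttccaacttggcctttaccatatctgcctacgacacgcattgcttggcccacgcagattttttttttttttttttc
Mmp13: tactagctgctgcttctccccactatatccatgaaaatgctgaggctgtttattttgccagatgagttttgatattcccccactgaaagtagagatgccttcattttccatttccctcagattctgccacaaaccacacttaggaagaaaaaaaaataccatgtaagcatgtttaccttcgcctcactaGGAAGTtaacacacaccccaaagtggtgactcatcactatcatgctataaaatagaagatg

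GGAAGT on either strand was present in the windows of Lyz2, Lyz1, Ptgs1, Il1r2 and Mmp13, that is 5 of the 6 genes, and in neither of the 2 windows of Pgf. Among all 32851 promoter windows of the same length, 19.7% held it. In both lysozymes the match lay 100 to 95 bases before the start, in Il1r2 103 to 98, in Mmp13 61 to 56 and in Ptgs1 22 to 17. The lysozyme windows are alike around their match and had the same letter at 60.8% of positions. The lysozyme matches are therefore not separate cases among the 5. The Ptgs1 match was the only one of the 6 genes that extended to GAGGAAGT, a form bound by the myeloid and B cell factor PU.1, which overlaps GGAAGT and was found in 2.44% of all windows. AATC, the core of the site that GFI1 family proteins bind, was present on either strand in the windows of Lyz1, Il1r2 and Mmp13 and in 69.0% of all windows. TGANTCA, the form read by AP-1, was found 35 to 29 bases before the start of Mmp13 and in 6.75% of all windows. ACCACA, a RUNX core, was found in the windows of Lyz2 and Mmp13 and in 14.0% of all windows, and TTGCNNAA, a C/EBP form, in the window of Lyz1 and in 9.56%. These 6 motifs were all searched on both strands and were chosen with the windows in view. No excess over the share of all windows can therefore be read from the counts. A match describes letters and does not show that a factor binds.

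The lysozyme genes lie side by side on chromosome 10, in band D2 per the table, with no other protein-coding gene between them. Set base against base without gaps, their windows had the same letter at 152 of 250 positions (60.8%), against 24.0% to 32.4% for the other 14 pairs among the 6 genes. The last 50 bases before the start were identical. The transcripts are also known to be alike, and because the probe sequences were not used here, reading of one lysozyme's transcript by the other's probe set was not tested.

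Lyz2 (probe set 10372648) was measured at 8.25, 8.21 and 8.02 in untreated replicates 1 to 3 and at 9.60, 9.40 and 9.26 in tamoxifen replicates 1 to 3 (log2). The lowest tamoxifen array stood 1.00 above the highest untreated array, so that the groups did not overlap. The group means were 8.16 ± 0.12 and 9.42 ± 0.17 (SD, n = 3 each), a difference of 1.26 ± 0.11 (SE from the limma fit) or 2.39-fold. Lyz1 (probe set 10372652) was measured at 7.23, 7.25 and 7.26 in untreated cells and at 7.88, 7.90 and 7.88 with tamoxifen. The groups stood 0.61 apart, and within a group the arrays were almost level, with an SD of 0.017 untreated and 0.011 with tamoxifen (n = 3 each). The difference for Lyz1 was 0.64 ± 0.051 (SE) on the log2 scale, or 1.56-fold, the smallest of the 6. Only 0.377% of all probe sets had a smaller SD within groups than Lyz1, whereas 70.6% had a smaller one than Lyz2.

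Ptgs1 (probe set 10471721, chromosome 2, band B) was measured at 7.75, 7.99 and 7.75 in untreated replicates 1 to 3 and at 9.86, 9.75 and 10.01 in the tamoxifen replicates. The lowest tamoxifen array was 1.77 above the highest untreated array, while the arrays of a group spanned 0.24 and 0.26. The mean went from 7.83 ± 0.14 to 9.87 ± 0.13 (SD, n = 3 each), a difference of 2.04 ± 0.099 (SE) or 4.13-fold. No other of the 35557 probe sets had a larger positive difference. In untreated cells 54.7% of probe sets were dimmer than that of Ptgs1, and with tamoxifen 77.7% were. In bulk RNA, a higher level in every cell and a larger number of cells that express the gene cannot be told apart, which holds for all 6 genes.

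Il1r2 (probe set 10345752, chromosome 1, band B) was measured at 7.52, 7.54 and 7.34 in untreated cells and at 8.87, 8.61 and 8.97 with tamoxifen. The groups stood 1.07 apart, and tamoxifen replicate 2 was the lowest of its group. The mean went from 7.47 ± 0.11 to 8.82 ± 0.19 (SD, n = 3 each), a difference of 1.35 ± 0.11 (SE) or 2.55-fold. Mmp13 (probe set 10583044, chromosome 9, bands A1-A2) was measured at 7.11, 7.36 and 7.03 in untreated cells and at 8.46, 8.61 and 8.52 with tamoxifen. Here untreated replicate 2 was the highest of its group, and the groups stood 1.104 apart. The difference was 1.36 ± 0.098 (SE), or 2.57-fold, from 7.16 ± 0.17 to 8.53 ± 0.073 (SD, n = 3 each). Pgf (probe set 10401607, chromosome 12, band D) was measured at 7.73, 7.59 and 7.11 in untreated cells and at 9.42, 9.18 and 9.01 with tamoxifen. Its arrays spread the most of the 6 genes, with replicate 3 the lowest in both groups, and the gap between the groups was 1.28. The mean of Pgf went from 7.48 ± 0.32 to 9.20 ± 0.21 (SD, n = 3 each), a difference of 1.72 ± 0.18 (SE) or 3.30-fold, at place 2 among all probe sets.

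**Figure D1:**
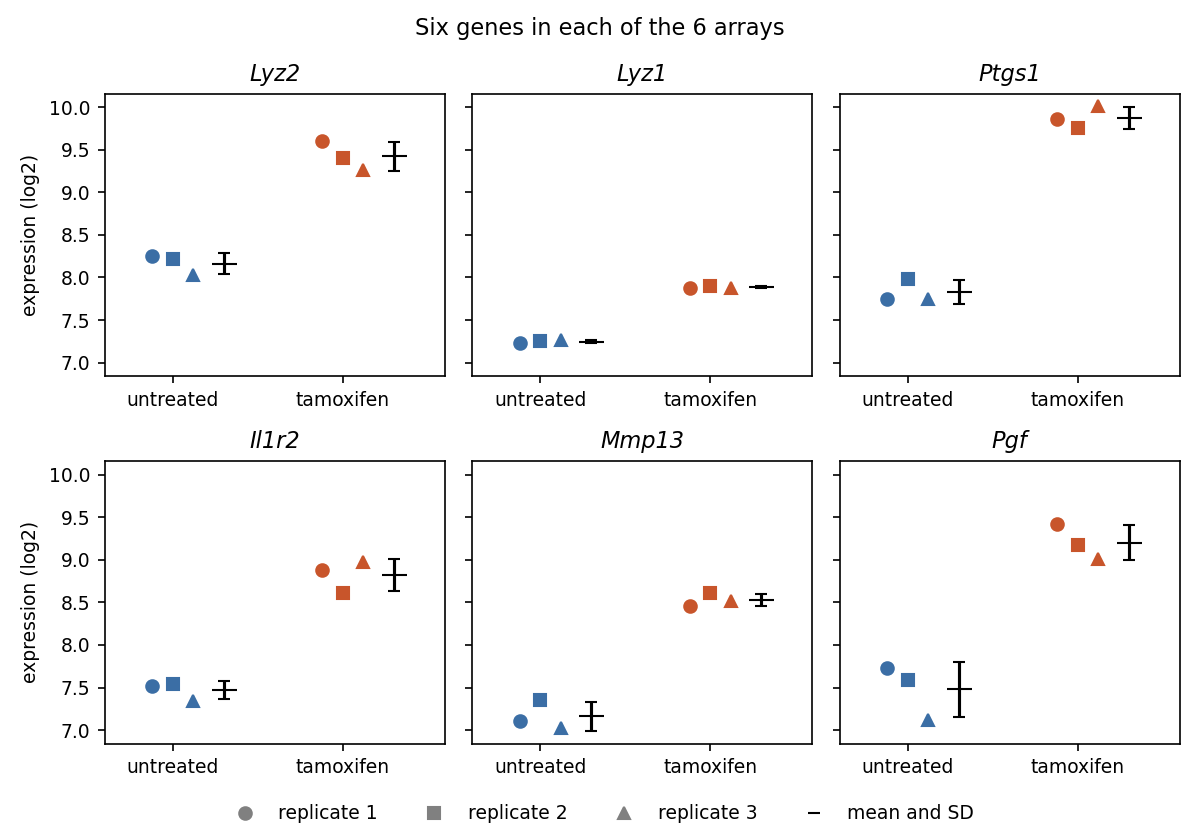
Expression (log2, vertical axis) of the 6 genes in 3 untreated (blue) and 3 tamoxifen (orange) arrays, with marker shape for the replicate number and bars for the mean and SD of each group. In every gene the 3 tamoxifen points lie above the 3 untreated points, and the gap is narrowest for Lyz1, at 0.61, and widest for Ptgs1, at 1.77.

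Every tamoxifen array lay above every untreated array in 6 of the 6 genes, an order that held for 10.5% of all probe sets. In all 6 the gap was also wider than the range of either group, for which no share over all probe sets was computed. All 6 also passed an adjusted p of 0.05 in the limma fit over all probe sets (Benjamini-Hochberg), where 0.433% of probe sets passed with a higher value under tamoxifen. Because the genes were picked from this contrast, nothing is read from any of these counts. The median difference of the 6 genes was 1.36 on the log2 scale, beside -0.0092 for all probe sets. Of the genes, 5 were among the 25 largest positive differences of all probe sets, at places 1 (Ptgs1), 2 (Pgf), 12 (Mmp13), 13 (Il1r2) and 16 (Lyz2), while Lyz1 stood at place 408. In the authors' deposited table Lyz1 had a fold of 1.56, near the smallest rise listed there, 1.503, and Ptgs1 had the largest, 4.14. In untreated cells the levels were those of a middling probe set, with between 41.5% (Mmp13) and 59.5% (Lyz2) of probe sets dimmer. Without a measure of background it is not known whether the untreated levels stand for expression.

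**Figure D2:**
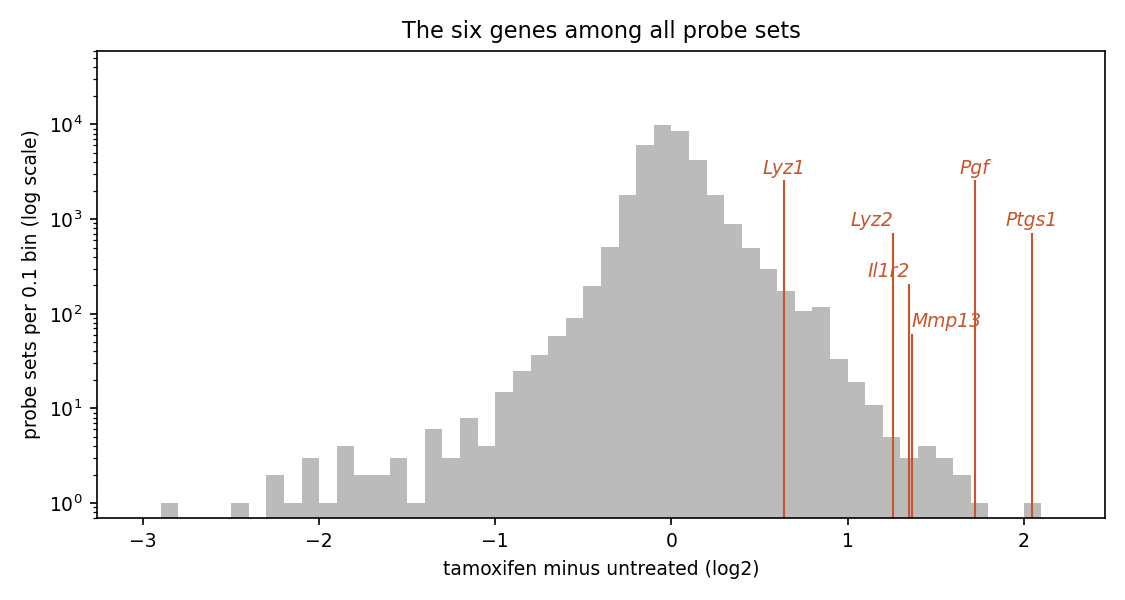
Number of probe sets (vertical axis, log scale) by difference between the means of tamoxifen and untreated arrays (horizontal axis, log2, in bins of 0.1), with a line at each of the 6 genes. Ptgs1 at 2.04 and Pgf at 1.72 stand at the far right, and Lyz1 at 0.64 lies on the shoulder of the main body.

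The differences were also computed with arrays left out, which for genes picked on these same arrays is a description and no support. With 1 array removed at a time, the widest range was that of Pgf, whose difference was 1.54 without untreated replicate 3 and 1.85 without untreated replicate 1 (log2). Past the threshold in all 6 of these fits were Ptgs1 and Mmp13. Lyz2 and Il1r2 passed in 4, Pgf in 2 and Lyz1 in 1. The fits without 1 array called fewer probe sets in 5 of 6 cases, as given with the limits at the end.

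Which array of a group was high differed between the genes. Lyz2 and Pgf moved alike, both being lowest in replicate 3 of each group, with a correlation of their deviations from the group means of 0.93 over the 6 arrays. Ptgs1 and Il1r2 were both lowest in tamoxifen replicate 2 and highest in untreated replicate 2, with a correlation of 0.77. The lysozymes did not move together in this respect (-0.36), and the largest deviation of Lyz1 from its group mean was -0.019, in untreated replicate 1. Of the 15 pairs, 9 had a correlation above 0, and the range was -0.73 to 0.93. Single correlations were not stable. Without both arrays of replicate 2 (4 arrays) that of Lyz2 with Pgf was 0.92 and that of Ptgs1 with Il1r2 was 0.46. Mmp13 went from 0.083 to 0.995 with Il1r2 and from 0.22 to -0.87 with Lyz1. The raw levels, which carry the treatment difference in every gene, correlated at 0.96 to 0.99 for all 15 pairs. These are descriptions of 6 arrays, and all genes of an array share its RNA and its hybridisation.

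The arrays carry a pattern that crosses the treatment groups, seen in a block of 6667 probe sets numbered below the lowest in the authors' deposited table. Its median was 7.26 and 7.27 in untreated replicates 1 and 3 but 7.499 in untreated replicate 2, and 7.53 and 7.48 in tamoxifen replicates 1 and 3 but 7.31 in tamoxifen replicate 2. The deviations of Ptgs1 from its group means correlated at 0.85 with those of this median, and those of Il1r2 at 0.72, against 0.41 for Mmp13, 0.30 for Lyz2, 0.29 for Pgf and -0.15 for Lyz1 (6 arrays). Without both arrays of replicate 2 the block median lined up with treatment, and the differences were then 2.18 for Ptgs1 and 1.49 for Il1r2. Between the 2 arrays of replicate 2, where the block median was lower with tamoxifen, tamoxifen was higher by 1.77 for Ptgs1 and by 1.07 for Il1r2. The part of this pattern in the differences was not tested.

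**Figure D3:**
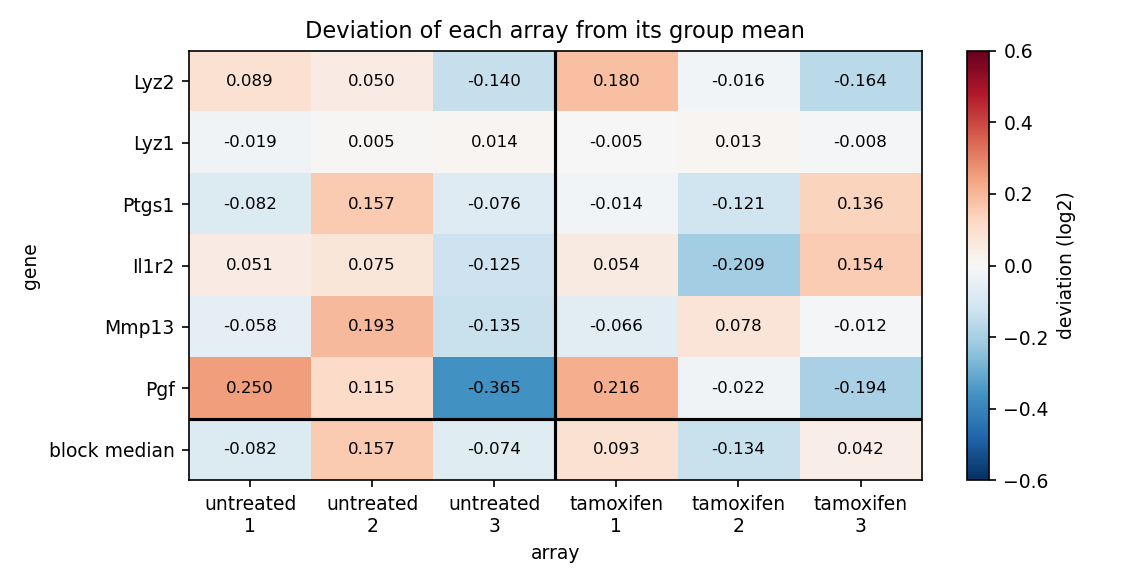
Deviation (log2, colour and printed value) of each array (columns) from the mean of its group for the 6 genes and, in the bottom row, for the median of the block of low-numbered probe sets. Pgf and Lyz2 are lowest in replicate 3 of both groups, Ptgs1 and Il1r2 follow the bottom row most closely, and Lyz1 is nearly flat.

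Genes that act in the same pathways or cells were looked up in 7 lists, drawn up with earlier results of these data known. Names were at hand only for the rows of the authors' deposited table, whose genes were selected for their change on these arrays, so counts of list genes are no independent evidence. Of 177 genes besides the 6 members, the table named 10. None of the 10 was higher past the threshold of the limma fit (4 were at an unadjusted p under 0.05), 6 were lower and 4 did not pass, with a median difference of -1.07 beside -0.0092 for all probe sets. Across all probe sets 0.456% passed as lower, but the 10 could come only from the authors' deposited table, where 149 of 251 rows (59.4%) were lower and 45.4% passed as lower.

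Of 25 genes in the list of the interleukin 1 family, its receptors and the proteins that act with them, 3 were named, and all 3 fell while Il1r2 was higher. Il33, a cytokine of the family released by damaged cells, was measured at 8.14, 8.31 and 8.31 in untreated cells and at 6.58, 6.74 and 6.86 with tamoxifen. The difference was -1.53 ± 0.093 (SE; limma adjusted p = 0.0034), a 2.89-fold fall, and it passed in all 6 fits without 1 array. Casp1, the protease that matures interleukin 1 beta, was measured at 8.70, 9.26 and 8.79 in untreated cells and at 7.57, 7.46 and 7.57 with tamoxifen, a difference of -1.39 ± 0.15 (SE; limma adjusted p = 0.018). Il18rap, the accessory chain of the interleukin 18 receptor, was measured at 8.94, 9.48 and 9.12 against 8.26, 8.04 and 8.24, a difference of -0.997 ± 0.15 (SE; limma adjusted p = 0.045). In all 3 genes the groups did not overlap, which held in either direction for 18.3% of all probe sets. Rows of the authors' deposited table were selected for their change, so nothing is read from this. Casp1 and Il18rap passed in 1 of the 6 fits without 1 array, the one without untreated replicate 2, where both genes were highest.

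In the prostaglandin and leukotriene list, 2 of 29 genes were named and neither passed. Ptgir, the receptor for prostacyclin, was measured at 9.85, 10.02 and 9.51 in untreated cells and at 10.54, 10.60 and 10.39 with tamoxifen, a difference of 0.72 ± 0.14 (SE; limma adjusted p = 0.088). Alox5ap, which presents arachidonic acid to 5-lipoxygenase, was measured at 8.10, 7.76 and 7.84 against 8.75, 8.46 and 8.66, a difference of 0.72 ± 0.12 (SE; limma adjusted p = 0.058). The groups did not overlap in either gene, as in 18.3% of all probe sets in either direction. Over the alternatives the limma adjusted p ranged from 0.028 to 0.31 for Ptgir and from 0.015 to 0.22 for Alox5ap.

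Among 38 granule and phagocyte genes the table named 1, Ncf1, a subunit of the phagocyte oxidase, measured at 9.15, 9.21 and 9.54 in untreated cells and at 9.92, 9.85 and 10.16 with tamoxifen, a difference of 0.67 ± 0.13 (SE; limma adjusted p = 0.091, and 0.030 to 0.28 over the alternatives). Among 14 myeloid transcription factors it named 1, the HLH inhibitor Id2, with a difference of 0.63 ± 0.15 (SE; limma adjusted p = 0.14, and 0.018 to 0.41 over the alternatives). Of 33 inflammatory cytokines, chemokines and related genes 3 were named, and all 3 fell. Csf1, the growth factor of macrophages, was measured at 9.83, 10.20 and 9.85 in untreated cells and at 8.80, 8.75 and 8.88 with tamoxifen, a difference of -1.15 ± 0.11 (SE; limma adjusted p = 0.015). It passed in 1 of the 6 fits without 1 array, the one without untreated replicate 2. The scavenger receptor Cd36 and the protease Ctss, both abundant in macrophages, differed by -2.01 ± 0.14 and -2.82 ± 0.055 (SE; limma adjusted p = 0.0062 and 3.7e-05). No gene of the 25 matrix metalloproteinases and inhibitors or of the 15 VEGF and PDGF family genes was named besides Mmp13 and Pgf.

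**Figure D4:**
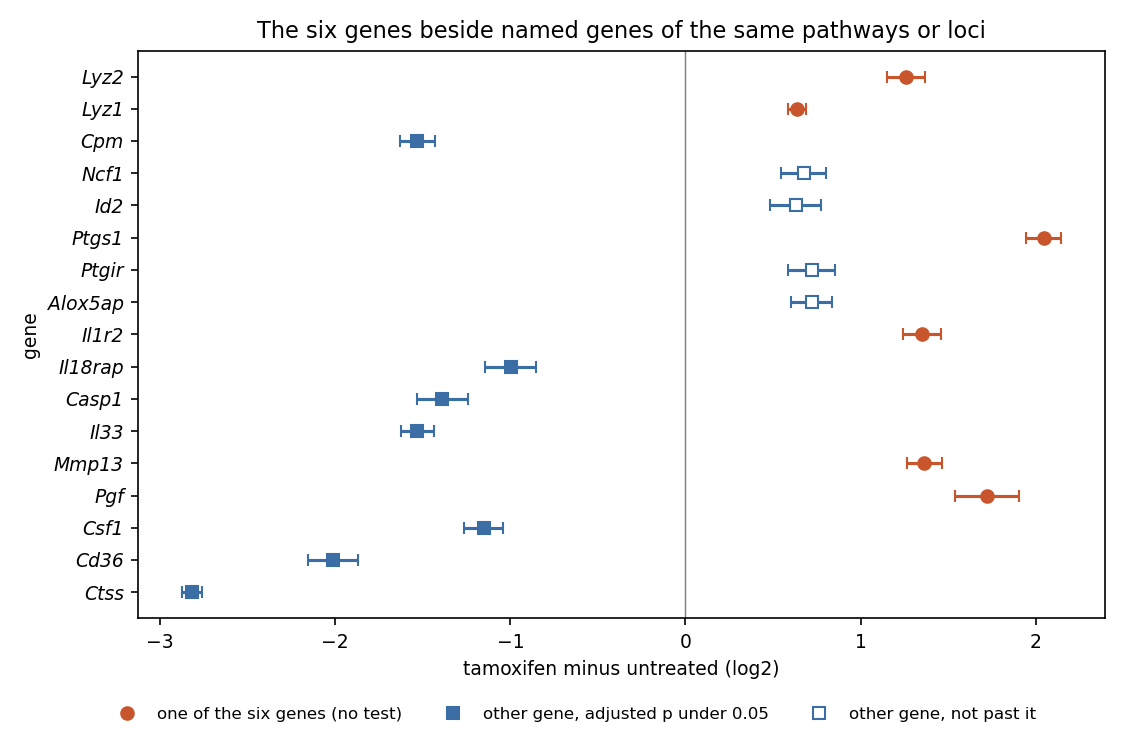
Difference between tamoxifen and untreated means (log2, horizontal axis, bars for the SE) for the 6 genes (orange circles), for the 10 named genes of the 7 lists and for Cpm (blue squares, filled where the limma adjusted p was under 0.05). The orange circles lie between 0.64 and 2.04, and the filled squares lie between -2.82 and -0.997.

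Some of these genes are neighbours. Beyond Lyz1 lies Cpsf6 and then Cpm, a membrane carboxypeptidase also found on macrophages, which was measured at 10.96, 11.17 and 11.22 in untreated cells and at 9.51, 9.50 and 9.74 with tamoxifen. Cpm fell 2.89-fold, a difference of -1.53 ± 0.10 (SE; limma adjusted p = 0.0048), while both lysozymes beside it were higher. Il18rap lies in the same cluster of receptor genes as Il1r2, with 4 protein-coding genes between them, and Casp1 lies near Mmp13, with 6 between them. Cpm, Il18rap and Casp1 were each lower where the member was higher, but 59.4% of the rows of the authors' deposited table were lower. The lysozymes, each the nearest named neighbour of the other, were both higher. Ptgs1 and Pgf had no named neighbour within 20 protein-coding genes, so nothing is read from these directions. Of 209 named genes placed on the chromosomes, 42.6% had another named gene within 20 protein-coding genes, so that a neighbour in the table is common. Cpm was singled out after its values were seen.

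Marker genes of the B lineage and of other cell types were counted in 7 further lists. Of 76 genes 9 were named, 4 of them higher, 4 lower and 1 not past the threshold, with a median difference of 0.61. The 9 could come only from the authors' deposited table, where 27.1% of rows passed as higher and 45.4% as lower. Over all probe sets 0.433% passed as higher and 0.456% as lower, and the median difference was -0.0092. The lists of mast cells and basophils (11 genes), megakaryocytes and platelets (10) and erythroid cells (8), in which Ptgs1, Il1r2 or Gfi1b are also used, had no gene in the table. Of the 4 B lineage markers that were named, untreated cells had Blk at 11.94 ± 0.040, Cd79b at 11.70 ± 0.054, Rag1 at 11.34 ± 0.13 and Rag2 at 8.72 ± 0.19 (log2, SD, n = 3). The first 3 of these stood above the upper quartile of every array and Rag2 below it. With tamoxifen Blk, Rag1 and Rag2 fell, with log2 differences of -0.81, -2.28 and -1.83, the largest limma adjusted p being 0.0096, for Blk, and Cd79b rose by 0.65 (limma adjusted p = 0.021). Prdm1 and Xbp1, factors of plasma cells, rose by 0.89 and 0.61 (log2 differences; adjusted p = 0.020 and 0.025 by limma), and Tcf7, a factor of T cells, rose by 0.85 (limma adjusted p = 0.0060). Zap70 had a difference of 0.63 (limma adjusted p = 0.078), and Vim, the filament protein of stromal cells that white blood cells also make, fell by 0.88 (limma adjusted p = 0.0062). With 1 array left out, Tcf7, Vim, Rag1 and Rag2 passed in all 6 fits, Prdm1 and Blk in 2, and Cd79b and Xbp1 in 1, the one without untreated replicate 2. Genes that are not in the table have no name here, so the defining markers of macrophages and granulocytes could not be read, and a part of such cells in the 6 differences was not tested.

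Among 213 other named genes, those whose 6 levels ran most like each member were listed by Pearson correlation. These correlations are high for any gene that differs by treatment and are given as a description. Closest to Ptgs1 was Rhof, a small GTPase (0.996), followed by Tcf7 (0.996). Closest to Pgf was Gna15, a G protein subunit of blood cells (0.995), then Cst7, an inhibitor of lysosomal proteases in immune cells (0.995). For Lyz2 they were Dclre1a, a DNA repair nuclease (0.997), and Gna15 (0.997), and for Lyz1 the secretory cell factor Bhlha15 (0.997). Closest to Il1r2 was Agpat2, an acyltransferase of lipid synthesis (0.998), which was also the gene most like it in its deviations from the group means (0.97). Closest to Mmp13 was Ddc, which makes dopamine and serotonin (0.995). Both Lyz2 and Pgf had Slc37a3 and Zcchc24 among the 3 genes most like them in deviations from the group means, at 0.95 to 0.97. Slc37a3 was lower with tamoxifen (-0.60) and Zcchc24 higher (0.69). Deviations of Lyz2 and Pgf correlated at 0.93 with each other, so shared genes follow from that. The closest of 213 genes over 6 arrays is high for every member in deviations, from 0.88 for Lyz1 to 0.99 for Ptgs1.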

How the data were processed

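Total RNA from 6 cultures was labelled with biotin and read on 1-colour arrays, per the labels' protocols, and arrays were grouped by title into 3 untreated and 3 tamoxifen. The authors deposited log2 expression values for 35557 probe sets, used as deposited. The sources used here do not state the normalization between arrays, the array design or the genome build. The submitters' processing notes name Partek without a role. The authors' deposited table gives 251 probe sets with a p-value, not used here except to select rows, and a signed fold that serves as a score. Of these, 200 were named by accession through RefSeq (GRCm38.p6), 13 by symbol and 19 by synonym, 8 kept their name and 11 had none. Where several probe sets carried a name, the brightest was used.

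All probe sets were fitted with limma 3.58.1 in R 4.3.3 (lmFit, eBayes, 2 groups, no covariate), with Benjamini-Hochberg adjustment at 0.05 and 2.49 prior beside 4 residual degrees of freedom. p-values speak of the spread among these 6 arrays, whose number limits precision. The submitters call the replicates biological. The members, the gene lists and the tests were chosen with earlier results of these data known. Genes named are the members, the list genes in the table, those most like a member by correlation, and Cpm. Alternatives were a replicate block, arrays left out, a filter on dim probe sets, 2 normalizations, another variance model, the block of low-numbered probe sets left out and a threshold of 0.1. For the differences of the members, the authors' fold from the same arrays was also set beside the main value. Plots used matplotlib 3.10.9 and Python 3.11.15.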

Additional observations from a re-analysis of the deposited data

How the results depend on the processing

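No difference of the 6 genes changed sign in the 11 alternatives run for each, and 63 of 66 values moved by less than the SD within groups, which shows little for genes picked for their change. The 3 values that moved by more were Ptgs1 without both arrays of replicate 2 (2.18) and Lyz1 after quantile normalization (0.67) and median centring (0.67). With 1 array of each group in every block, the replicate block cannot change a difference of group means. The authors' fold comes from the same arrays. Values that stayed the same under these settings were fixed, or nearly so, in advance. With 1 array left out, the difference ranged from 1.98 to 2.12 for Ptgs1, from 1.54 to 1.85 for Pgf, from 1.30 to 1.46 for Mmp13, from 1.27 to 1.45 for Il1r2, from 1.17 to 1.34 for Lyz2 and from 0.63 to 0.64 for Lyz1. Each gene had 1 probe set, so that no mean over probe sets was run. Deviations with a correlation above 0 numbered 7 of 15 pairs without both arrays of replicate 2, against 9.

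Counts of called probe sets, 154 higher and 162 lower, were 270 higher without dim probe sets, 309 lower with quantile normalization and 104 lower with median centring. They were 410 and 311 with an intensity trend and robust variance, 332 and 308 without the low-numbered block, 364 and 294 at the looser threshold of 0.1, and 247 and 85 without both arrays of replicate 2. With 1 array left out the higher calls spanned 9 to 278 and the lower calls 28 to 136, the most higher calls coming without untreated replicate 2. The cause was not tested, except that fewer arrays, fewer probe sets or another threshold are part of some settings. List genes, 4 higher and 10 lower, ranged from 1 to 5 and from 6 to 10 with 1 array left out, and 8 were higher with the intensity trend, without the low-numbered block and at 0.1. The 6 members past the threshold ranged from 3 to 6, with 3 without untreated replicate 3, tamoxifen replicate 1 or tamoxifen replicate 2.

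Arrays of the same number did not deviate together (correlations -0.229, -0.45 and -0.0957 over all probe sets). The fit with the replicate block called 6 probe sets higher and 16 lower. In it 0 higher and 4 lower list genes and 4 members passed (limma; 9 list genes were higher at an unadjusted p under 0.05). The members that did not pass were Lyz1 and Il1r2 with the block, and Lyz2 and Pgf without both arrays of replicate 2. Of the genes tested in the text, Il33, Cpm, Ctss, Rag1 and Rag2 passed with the block, and the highest adjusted p among them was 0.040. No measure of background was used here.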
